A study of Xenopus laevis with 32 samples.

Results

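The genes described here encode subunits of the serine/threonine protein phosphatases of the frog Xenopus laevis: the families of PP1, PP2A, calcineurin, PP4, PP5 and PP6, and the metal-dependent PPM1 enzymes. They were taken by name, as every row whose lower-case gene name begins with ppp1 to ppp6 or with ppm1. The rule uses names and no measured value. This gave 37 of the 6497 genes with a polysome share, 89 of the 11943 names with an RNA level, and 89 of the 13344 genes with a mapped poly(A) site, which together hold 449 of 41982 sites. In all, 103 names occurred in at least 1 table and 28 in each of the 3. Of the 37 genes with a share, 17 belong to PP1, 6 to PP2A and 14 to the other families. Xenopus laevis carries a pair of related genomes, and the suffixes .L and .S name the copies of a gene, called homeologs, on the long and the short chromosomes.

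The oocytes came from 5 stages of meiotic maturation, all of frog oocyte tissue with no genetic change in the labels. Stage VI oocytes are full grown, arrested in prophase, and had received no progesterone. Progesterone is the hormone that starts maturation, and PG90 oocytes were collected 90 minutes after it was added. MI, interkinesis and MII oocytes were in meiosis I, between the divisions and in meiosis II. Sucrose gradients parted each extract into free messenger ribonucleoprotein, monosomes and polysomes, the last being RNA carrying several ribosomes. Polyadenylated RNA of the fractions gave 30 libraries in 15 groups of 2. PAS-seq, which reads the 3′ ends of polyadenylated RNA, was run on stage VI oocytes in 2 lanes. How many oocytes or females went into a library is not given, so the p-values measure only the spread between libraries that may be technical repeats. Because the RNA was selected by its poly(A) tail, the amount of an RNA and the length of its tail cannot be told apart in any level below. The fractions behind the polysome shares were selected in the same way, and the part of tail length in a share was not tested.

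Protein phosphatases remove the phosphates that the meiotic kinases add. PP1 and PP2A each have a catalytic subunit that acts through many regulatory subunits, which choose the substrate and the place. PP2A is built on a scaffold subunit, and its B-type subunits include the B55 and B56 families. PP2A with B55 is the main phosphatase that reverses phosphorylation by Cdk1, the kinase of M phase. In frog egg extracts, the kinase Greatwall (mastl) acts through the small inhibitors Arpp19 and Ensa to hold PP2A-B55 down in M phase. Emi2 (fbxo43), which keeps the egg in MII, recruits PP2A-B56 in frog eggs. Calcineurin is switched on by the calcium rise at fertilization in frog eggs.

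For each gene and stage the authors gave a polysome share, as a fraction, in a pair of column sets named x and y. What the share is taken of is not stated, and neither the depth behind it nor a map of x and y to libraries is given. Among all genes the median SD between x and y was 0.0497 at MII and 0.0352 at stage VI, and among the phosphatase genes it was 0.0405 at MII and 0.0377 at stage VI. The median share of all genes was 0.233 in x and 0.268 in y at MII, against 0.332 in x and 0.321 in y at stage VI, so changes below are set beside that drift. All 11 oocyte marker symbols looked up, among them zp2, gdf9, dazl and mos, were listed in the RNA level table. Of 8 follicle cell marker symbols 1 was listed, vim, at 30.3 in x and 22.0 in y at stage VI. The part of such cells in the results was not tested. Reads shared by homeologs could be split between them, and how the authors dealt with such reads is not given in the sources used here.

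The question of the stage comparison is which phosphatase mRNAs enter or leave polysomes as the oocyte matures. At MII, both homeologs of ppp2r2b, which encodes a B55 subunit of PP2A, rose in polysome share, and ppp1r3b.S, which encodes a subunit that brings PP1 to glycogen, fell. These were the 3 phosphatase genes of 37 that passed the test, 2 higher and 1 lower. Among all 6497 genes the same test called 0.554% higher and 3.82% lower. The test was limma on log2 of share / (1 - share), here called log2 odds, with p-values adjusted over all 6497 genes and a threshold of 0.05. A change of 1 on this scale is a factor of 2 in share / (1 - share).

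The B55 gene ppp2r2b.L had the largest change of any phosphatase gene. In column set x its share was 0.276 in stage VI oocytes, 0.252 in PG90, 0.530 in MI, 0.733 in interkinesis and 0.751 in MII oocytes. Column set y gave 0.251, 0.255, 0.423, 0.482 and 0.737 at the same stages. Both columns were thus near the stage VI values at PG90 and above them from MI onward. Averaged over the columns, the share was 0.744 ± 0.00987 at MII and 0.263 ± 0.0178 at stage VI (SD, n = 2 each). The log2 odds change was 3.02 (SE 0.55, limma adjusted p = 0.0388), which ranked 3 of 6497 genes by size of rise. Relative to the median gene, with each column centred on its median, the change was 3.56 (limma adjusted p = 0.0360).

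Its homeolog ppp2r2b.S had shares in column set x of 0.358 in stage VI oocytes, 0.277 in PG90, 0.448 in MI, 0.637 in interkinesis and 0.628 in MII oocytes. In y the shares were 0.302, 0.280, 0.490, 0.562 and 0.734. PG90 values of this gene lay below both stage VI values, and those of MI, interkinesis and MII above them. The mean was 0.681 ± 0.0754 at MII and 0.330 ± 0.0395 at stage VI (SD, n = 2 each). The log2 odds change at MII was 2.14 (SE 0.47, limma adjusted p = 0.0436), which ranked 24 of 6497. The call ended when only the 4 columns of MII and stage VI were fitted (limma adjusted p = 0.0739) and when MII column y was left out (limma adjusted p = 0.0704). When either stage VI column was left out, no gene of the table was called, these 3 included.

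At MI the log2 odds changes were 1.35 for ppp2r2b.L and 0.84 for ppp2r2b.S, with limma adjusted p = 0.406 and 0.474. At interkinesis they were 2.16 and 1.61, with limma adjusted p = 0.228 and 0.240. Neither passed the test before MII, although all 4 values of each gene at these stages lay above both of its stage VI values. Before MII no gene of the whole table passed (0% of 6497). Phosphatase genes with an unadjusted p under 0.05 numbered 0 at PG90, 6 at MI and 6 at interkinesis, beside 0.908%, 11.7% and 16% of all genes. Counted by gene, both columns lay above both stage VI columns in 3 (PG90), 5 (MI) and 3 (interkinesis), beside 7.71%, 12.3% and 12.4% of all genes. They lay below in 8, 17 and 14, beside 21.1%, 38.8% and 41% of all genes. Between neighbouring stages none was called either (0% of all genes). An unadjusted p under 0.05 was found in 5 for MI versus PG90, in 2 for interkinesis versus MI and in 1 for MII versus interkinesis, beside 4.82%, 3.48% and 4.46% of all genes.

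**Figure D1:**
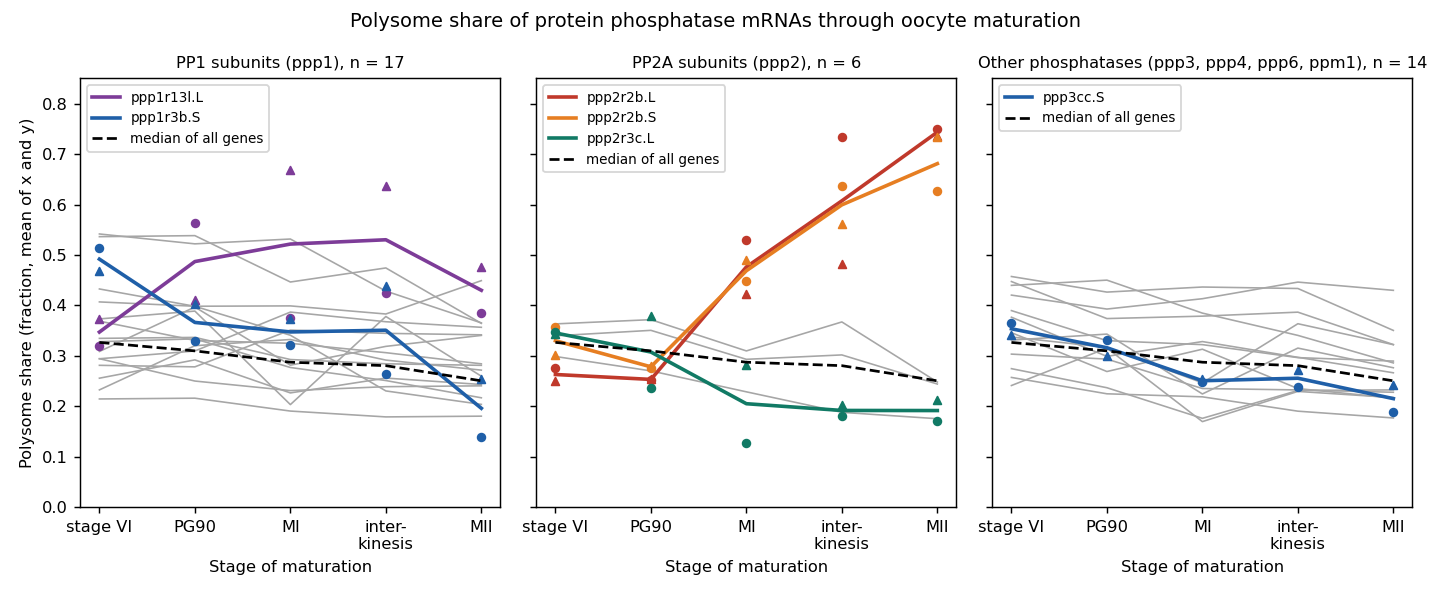
Polysome share (fraction, vertical axis) at the 5 stages for the 17 PP1, 6 PP2A and 14 other phosphatase genes. Lines join means of x and y, the dashed line is the median of all 6497 genes, circles are x and triangles y for the coloured genes, and grey lines are the other genes. The ppp2r2b homeologs reach means of 0.744 and 0.681 at MII, where the median of all genes is 0.233 in x and 0.268 in y.

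The other 4 PP2A genes with a share lay lower at MII, and none passed the test. The B56 subunit gene ppp2r5a.L had shares of 0.151 in x and 0.200 in y at MII, against 0.253 in x and 0.345 in y at stage VI, a log2 odds difference of -1.0 (limma adjusted p = 0.146). Its homeolog ppp2r5a.S differed by -0.74, with 0.164 and 0.325 at MII and 0.297 and 0.382 at stage VI, so that its columns overlapped. A further pair encodes subunits with calcium-binding domains. Of these, ppp2r3c.L had 0.172 and 0.212 at MII, against 0.347 and 0.344 at stage VI, a difference of -1.16 (limma adjusted p = 0.112). Its difference was -1.14 at MI (limma adjusted p = 0.406), from 0.128 in x and 0.283 in y, and it ran from -1.85 to -0.42 there when 1 column was left out. At interkinesis it was -1.16 (limma adjusted p = 0.276). The interkinesis difference of ppp2r5a.L was -0.89 (limma adjusted p = 0.333), from 0.150 in x and 0.226 in y. For ppp2r3b.L the difference at MII was -0.83. The median of all genes moved by -0.57 at this stage, and with columns centred on their medians the difference of ppp2r3c.L was -0.62.

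Among the PP1 genes, ppp1r3b.S had the most negative change at MII. Its shares in column set x were 0.515 in stage VI oocytes, 0.330 in PG90, 0.323 in MI, 0.264 in interkinesis and 0.139 in MII oocytes. Column set y gave 0.469, 0.403, 0.372, 0.438 and 0.254. Every later value was below both stage VI values. The mean was 0.196 ± 0.0815 at MII and 0.492 ± 0.0322 at stage VI (SD, n = 2 each), a log2 odds change of -2.05 (SE 0.48, limma adjusted p = 0.0456) that ranked 37 of 6497 by size of fall. With columns centred on their medians the change was -1.51 and missed the threshold (limma adjusted p = 0.0794), as it did after quantile normalization (limma adjusted p = 0.0588) and without MII column x (limma adjusted p = 0.115). The RNA level of ppp1r3b.S was low at stage VI, with 9.38 in x and 3.22 in y. The median of all names was 44.7 in x and 9.53 in y. Whether this low level affected its share was not tested. A gene listed as ppp1r3b.1, with no chromosome suffix, had 0.336 and 0.393 at MII, against 0.573 and 0.499 at stage VI, a difference of -1.02 (limma adjusted p = 0.168).

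The gene ppp1r2 encodes inhibitor-2, a protein that binds and inhibits the PP1 catalytic subunit. Shares of ppp1r2.S were 0.200 in x and 0.208 in y at MII, against 0.434 in x and 0.431 in y at stage VI. The difference of -1.57 did not pass the test (limma adjusted p = 0.0901), although the columns of each stage were close to each other. It ranked 209 of 6497 by size of fall. It passed when only the columns of MII and stage VI were fitted (limma adjusted p = 0.0466). At interkinesis the difference of ppp1r2.S was -1.55 (limma adjusted p = 0.257), from 0.114 in x and 0.348 in y. In ppp1r2.L column set x gave 0.140 at MII and 0.491 at stage VI, whereas y gave 0.591 at MII and 0.593 at stage VI. The homeologs of inhibitor-2 thus gave like values in x and unlike values in y.

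The PP1 gene ppp1r13l.L encodes iASPP, a PP1-binding inhibitor of p53. In column set x its share was 0.321 in stage VI oocytes, 0.563 in PG90, 0.374 in MI, 0.424 in interkinesis and 0.385 in MII oocytes. In y it was 0.374, 0.412, 0.669, 0.636 and 0.476. Both columns exceeded both stage VI values at each later stage, which held for no other PP1 gene, but x was highest at PG90 and y at MI. At MI the margin was slight, with 0.3743 in x against 0.3740 in y at stage VI. How many of all genes have this pattern was not counted. The log2 odds difference from stage VI was 0.84 in PG90, 1.05 in MI, 1.10 in interkinesis and 0.50 in MII oocytes, and none passed the test (limma adjusted p = 0.592 for MII). At PG90 the next largest rises with both columns above stage VI were 0.65 for ppp1r10-like.S and 0.27 for ppp1r9a.L. The first is related to the nuclear targeting subunit PNUTS, and the second encodes neurabin, an actin-binding subunit. With both columns below stage VI, the largest PG90 falls were -0.75 for ppp1r3b.S, -0.54 for ppm1e.S and -0.51 for ppm1b.S. In all, 3 phosphatase genes lay above and 8 below.

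The PP1 catalytic gene ppp1cb was the single catalytic subunit of PP1 or PP2A with a share. Values of ppp1cb.L were 0.204 in x and 0.365 in y at MII, against 0.337 in x and 0.401 in y at stage VI, a difference of -0.61 (limma adjusted p = 0.419). For ppp1cb.S the MII values were 0.261 and 0.302 and the stage VI values 0.331 and 0.339, a difference of -0.37 (limma adjusted p = 0.602) that turned to 0.17 with median-centred columns. The columns of the stages overlapped in ppp1cb.L and not in ppp1cb.S. The myosin phosphatase subunit rows ppp1r12a-like.L and ppp1r12a-like.S differed by 0.38 each, and their columns overlapped. The nuclear inhibitor gene ppp1r8.S had 0.193 and 0.241 at MII, against 0.351 and 0.306 at stage VI, a difference of -0.82 (limma adjusted p = 0.112). The row ppp1r37-like.L had its lowest value at MI, 0.143 in x and 0.264 in y, against 0.427 and 0.320 at stage VI, a difference of -1.27 (limma adjusted p = 0.396).

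The 3 calcineurin genes lay below stage VI in both columns at MII, as did 53.5% of all genes, and none passed the test. The catalytic gene ppp3cc.S had 0.189 and 0.242 at MII, against 0.365 and 0.342 at stage VI, a difference of -1.01 (limma adjusted p = 0.0647). In ppp3cc.L the values were 0.270 and 0.302 at MII and 0.477 and 0.403 at stage VI, a difference of -0.97 (limma adjusted p = 0.117). The regulatory gene ppp3r1.L had 0.269 and 0.310 at MII, against 0.416 and 0.363 at stage VI, a difference of -0.65. All 3 also lay below both stage VI values at MI and interkinesis, as did 38.8% and 41% of all genes.

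All 7 PPM1 genes had negative differences at MII, with a median of -0.56, beside -0.57 for all genes. The lowest was ppm1e.S, a phosphatase of p21-activated kinases, with 0.218 and 0.215 at MII, against 0.331 and 0.361 at stage VI, a difference of -0.94 (limma adjusted p = 0.0909). The differences of ppm1b.L and ppm1b.S, which encode a broadly acting PP2C enzyme, were -0.83 and -0.74. In ppm1b.L the columns went apart, with 0.211 in x and 0.434 in y at MII, against 0.546 in x and 0.349 in y at stage VI. Those of ppm1d.L and ppm1d.S, which encode the p53-linked enzyme Wip1, were -0.56 and -0.19, and those of ppm1g.L and ppm1g.S -0.11 and -0.39. Relative to the median gene the sign of ppm1d.S, ppm1g.L and ppm1g.S turned positive. PP4 and PP6 were present through regulatory subunits, of which ppp6r3.S had 0.182 and 0.172 at MII, against 0.247 and 0.268 at stage VI, a difference of -0.69 (limma adjusted p = 0.154). For its homeolog ppp6r3.L the values were 0.254 and 0.211 at MII and 0.247 and 0.303 at stage VI. That difference was -0.32 (limma adjusted p = 0.552), and the columns overlapped.

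Over the 37 genes, both MII columns lay above both stage VI columns in 3 and below them in 17, and in 17 the columns overlapped. The same held for 9.37% of all genes in the upward and 53.5% in the downward direction. The median difference of the phosphatase genes was -0.61 and that of all genes -0.57, with 18 phosphatase genes above the median of all genes and 19 below it. At an unadjusted p under 0.05 there were 10 phosphatase genes, beside 32.7% of all genes. With x and y averaged, the phosphatase genes as a group were therefore near the table's own drift. Taken by column set, their median minus that of all genes was -0.14 in x and 0.13 in y, in opposite directions. The genes ppp2r2b.L, ppp2r2b.S and ppp1r3b.S passed the test against stage VI. Relative to the median gene, both ppp2r2b genes passed (limma adjusted p = 0.0360 each) and ppp1r3b.S did not (limma adjusted p = 0.0794). With the column set added as a block, 8 of the 37 were called at MII, 2 higher and 6 lower. This setting also called many more of all genes, and the called part of the phosphatase genes was no larger than that of all genes. The added 5, all lower, were ppp1r2.S, ppp2r3c.L, ppp2r5a.L, ppp3cc.S and ppm1e.S, with limma adjusted p between 0.0251 and 0.0488.

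**Figure D2:**
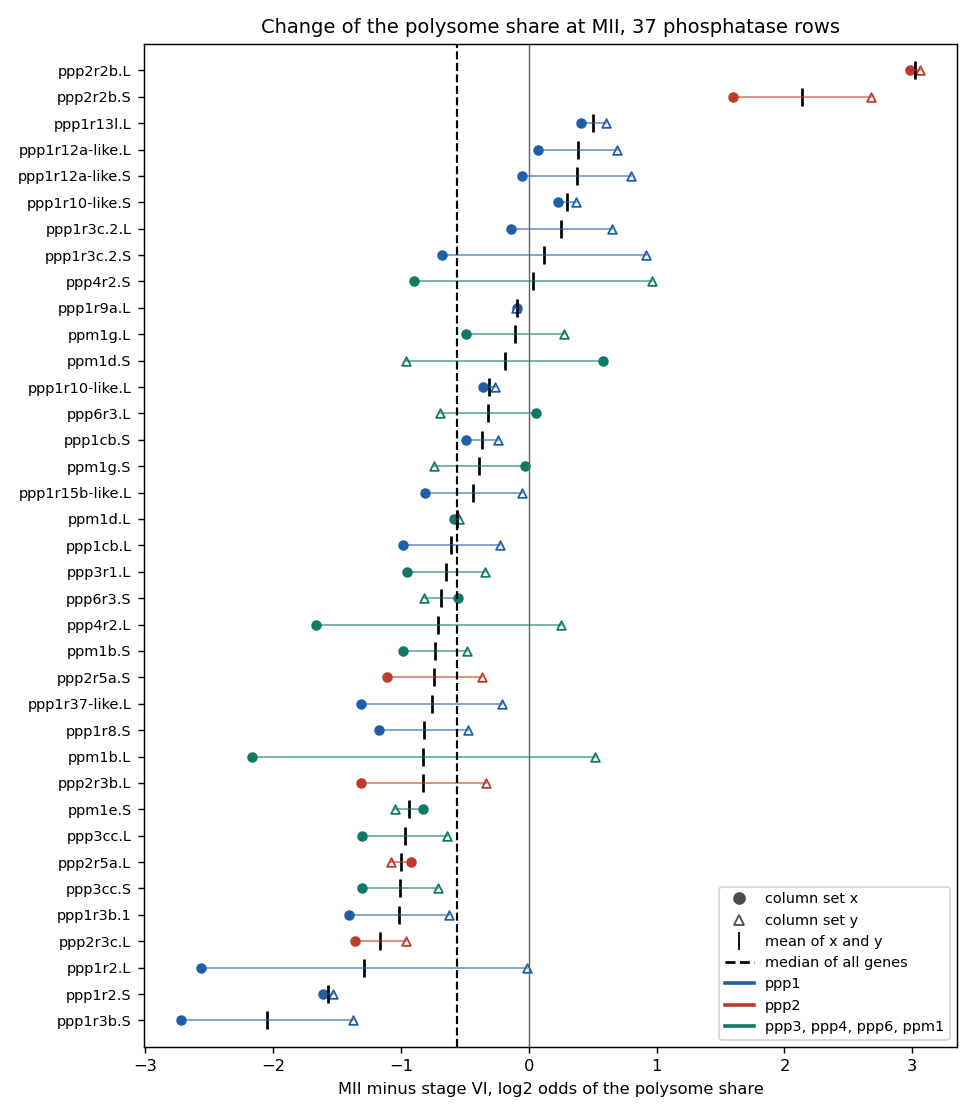
Change of the polysome share at MII relative to stage VI (log2 odds, horizontal axis) for each of the 37 genes, sorted by the mean. Filled circles are x, open triangles y, black ticks the mean of both, and the dashed line is the median of all genes at -0.57. The ppp2r2b genes lie at 3.02 and 2.14, and ppp1r3b.S at -2.05 is the lowest.

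Both homeologs of 13 genes had a share, and in 11 pairs the differences at MII had the same sign. Of the 37 genes 28 had a negative difference at MII, where the median of all genes was -0.57. How often unrelated genes share a sign was not tested. The gap between homeologs had the same sign in x and y in 4 pairs. It was largest in ppp2r2b, where .L exceeded .S by 0.89 (1.39 in x and 0.39 in y). In ppp4r2, a regulatory subunit gene of PP4, .L was lower than .S by 0.74, with -0.77 in x and -0.71 in y, from differences of -0.71 for .L and 0.04 for .S. In ppp1r10-like the gap was -0.61, with -0.32 for .L and 0.30 for .S. The gaps were not tested.

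The RNA level of a gene is given by the authors in columns whose headers call it a sum, of what is not stated, in a unit that is not stated either. The median level of the phosphatase genes at stage VI was 99.5 in x and 22.9 in y, so each later stage is set against stage VI within its column set. Levels are not compared between genes, apart from that of ppp1r3b.S with the median of all names. The level test used limma on log2 of the level, with a term for the column set, over the 11765 names listed a single time, 88 of them phosphatase genes. At MII, ppp1r12c.S and ppp6r1.S rose and no phosphatase gene fell by the test, where 0.612% of all names were called higher and 1.33% lower. Of the earlier stages none had a phosphatase gene called, where the test called 0.0085% of all names at PG90, 0.017% at MI and 0% at interkinesis. An unadjusted p under 0.05 was found in 3, 16 and 17 phosphatase genes, beside 3.27%, 14.4% and 23.7% of all names.

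The gene ppp1r12c.S encodes a subunit that targets PP1 to myosin. Its level in column set x was 43.0 in stage VI oocytes, 102 in PG90, 309 in MI, 239 in interkinesis and 248 in MII oocytes. In y it was 10.7, 10.3, 43.2, 25.5 and 96.2. Both sets were above stage VI from MI onward, and x already at PG90. The authors' deposited table gives MII to stage VI ratios of 5.77 in x and 8.96 in y, and the log2 change was 2.85 (SE 0.48, limma adjusted p = 0.0476). Its homeolog ppp1r12c.L had 114 in x and 35.9 in y at MII, against 91.9 in x and 20.3 in y at stage VI, a difference of 0.57 (limma adjusted p = 0.0882).

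The gene ppp6r1.S encodes a regulatory subunit of PP6, a phosphatase known to act on Aurora A in human cells. Levels were 4868 in x and 697 in y at MII, against 2063 in x and 260 in y at stage VI. By the authors' deposited table MII was 2.36 times stage VI in x and 2.68 times in y, and the log2 change was 1.33 (SE 0.21, limma adjusted p = 0.0475). For ppp6r1.L the levels were 2143 and 256 at MII and 1285 and 97.9 at stage VI, a difference of 1.06 (limma adjusted p = 0.0953). Both level calls ended when any 1 of the 4 columns of MII and stage VI was left out. The changes then ran from 2.11 to 3.58 for ppp1r12c.S and from 1.14 to 1.52 for ppp6r1.S. Both calls also ended when the column-set term was dropped and columns were centred on their medians, where no name of the table was called. The term was kept in a pair of other settings: columns centred on their medians, and names below the lower quartile of level left out. In both, ppp1r13l.L, ppm1d and ppp2r5a.S were called higher as well. Their changes were 0.96, 0.82 and 0.71 without the low names and 1.02, 0.89 and 0.78 with centred columns. Leaving out the low names also called the PP4 catalytic gene ppp4c.S lower (limma adjusted p = 0.0486). Both of these settings also called more of all names than the main fit. With the term kept and columns centred, the called part of the phosphatase genes was near that of all names. Without the low names the called parts were not compared.

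The iASPP gene ppp1r13l.L thus had higher values in both tables, with levels of 458 in x and 149 in y at MII, against 254 in x and 71.6 in y at stage VI. The PP6 subunit gene ppp6r3 had lower values in both column sets. Levels of ppp6r3.L were 316 in x and 52.4 in y at MII, against 549 in x and 109 in y at stage VI, a difference of -0.93 (limma adjusted p = 0.0653). In ppp6r3.S they were 137 and 33.1 at MII and 217 and 62.8 at stage VI, a difference of -0.79 (limma adjusted p = 0.106). In a further PP6 subunit gene, ppp6r2.L, x and y moved in opposite directions, with authors' deposited ratios of 0.694 in x and 1.38 in y (difference -0.03, limma adjusted p = 0.979). For the PP2A scaffold gene ppp2r1a.L the levels were 5.34 and 1.97 at MII and 9.70 and 3.45 at stage VI, a difference of -0.84 (limma adjusted p = 0.0641). The most negative difference, -3.73 in ppp2r3a.L (limma adjusted p = 0.164), rests on 1 value. In y its level was 90.0 in stage VI oocytes, 1.31 in PG90, 3.33 in MI, 2.33 in interkinesis and 1.01 in MII oocytes, and the difference was -0.75 once that 90.0 was left out.

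Neither ppp2r2b gene passed the test of RNA level. For ppp2r2b.L they were 519 in x and 44.4 in y at MII, against 455 in x and 96.4 in y at stage VI, so x and y moved in opposite directions (difference -0.47, limma adjusted p = 0.394). In ppp2r2b.S they were 121 and 21.4 at MII and 78.8 and 25.5 at stage VI, again in opposite directions (difference 0.18, limma adjusted p = 0.706). The other B55 genes, ppp2r2a.S and ppp2r2d.S, had level differences of -0.16 and 0.10 and were not in the share table. The level of ppp1r3b.S was 14.3 in x and 5.19 in y at MII, against 9.38 in x and 3.22 in y at stage VI, a difference of 0.65 (limma adjusted p = 0.0915) opposite in sign to that of its polysome share.

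No catalytic subunit gene passed the test of level. The PP1 catalytic genes ppp1cb.L and ppp1cb.S differed by 0.38 each, ppp1cc.L by 0.46, and ppp1cc.S and ppp1ca.L by 0.13 and 0.04 with opposite directions in x and y. The PP2A catalytic genes ppp2ca.L and ppp2cb.L differed by 0.46 and 0.17, the second again in opposite directions. The PP6 catalytic gene ppp6c.L differed by 0.43 and the PP4 catalytic gene ppp4c.S by -0.60, whereas its homeolog ppp4c.L differed by 0.15 with x and y in opposite directions. The PP5 genes ppp5c.L and ppp5c.S differed by -0.25 and -0.14, each with x and y in opposite directions. Their limma adjusted p lay between 0.0657 for ppp4c.S and 0.961 for ppp1ca.L. The 6 names of the B56 family had differences between 0.17 (ppp2r5c.L) and 0.75 (ppp2r5e.L), with ratios in the authors' deposited table of 1.08 in x and 1.18 in y for ppp2r5c.L and 2.50 in x and 1.14 in y for ppp2r5e.L. The calcineurin catalytic genes ppp3ca.L, ppp3ca.S and ppp3cc.S differed by 0.46, 0.37 and 0.30, and ppp3cc.L by -0.20. The calcineurin regulatory gene ppp3r1.L differed by 0.11 with x and y in opposite directions. The PP2A scaffold gene ppp2r1b.S differed by 0.25. Among the PPM1 genes, ppm1a.L, ppm1b.L and ppm1b.S differed by between 0.0038 and 0.099, each with x and y in opposite directions, whereas ppm1d.L, ppm1g.L and ppm1g.S differed by -0.54, -0.43 and -0.46. None of these B56, calcineurin, scaffold and PPM1 genes passed the test. Among the 88 names, 47 had authors' ratios above 1 and 17 below 1 in both sets at MII, beside 38.4% and 29.7% of all names. The median log2 difference was 0.19 for the phosphatase genes and 0.07 for all names. Ratios of at least 2 in both sets were found in 2 phosphatase genes (0.977% of all names), the called pair, and of at most 1/2 in 0 (3.37% of all names).

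**Figure D3:**
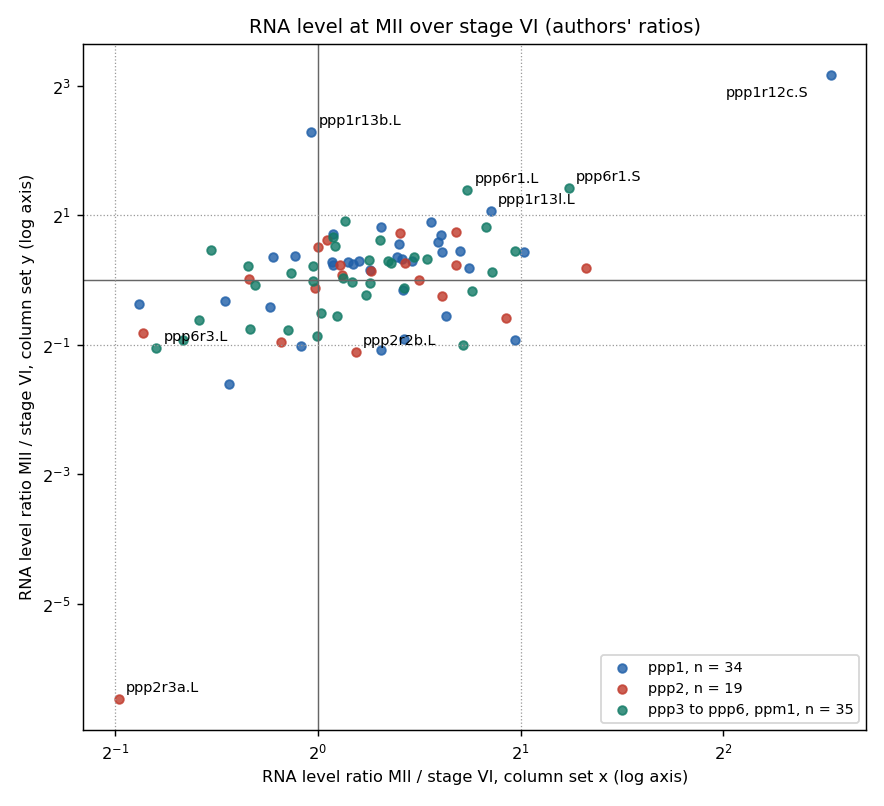
RNA level ratio of MII to stage VI from the authors' deposited table in column set x (horizontal, log axis) and y (vertical, log axis) for the 88 phosphatase names listed a single time. Each point is a gene, solid lines mark a ratio of 1 and dotted lines a 2-fold difference. The gene ppp1r12c.S lies at 5.77 and 8.96, ppp6r1.S at 2.36 and 2.68, and ppp2r2b.L at 1.14 and 0.46.

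Regulators and partners of PP1 and PP2A in cell division were followed in a list of 34 symbols. The list also holds M-phase kinases and cyclins, such as cdk1, plk1, ccnb1 and ccnb2. Of its symbols, 16 had 24 share rows and 21 had 33 level rows. At MII 1 of the 24 rows rose in share by the test and 0 fell, beside 0.554% and 3.82% of all genes, and 9 had an unadjusted p under 0.05, beside 32.7% of all genes. The called row was ccnb1.2.L, a cyclin B gene, with a log2 odds change of 2.26 (limma adjusted p = 0.0454), a call that ended without MII column y (limma adjusted p = 0.0867). The Greatwall gene mastl.L, which acts upstream of PP2A-B55, had shares of 0.209 in x and 0.282 in y at MII, against 0.426 in x and 0.315 in y at stage VI, a difference of -0.86 (limma adjusted p = 0.321). The shugoshin gene sgol1.L, whose protein recruits PP2A-B56 to centromeres, had 0.418 and 0.655 at MII, against 0.270 and 0.285 at stage VI, a difference of 1.61 (limma adjusted p = 0.0646). The kinetochore gene casc5.S, whose protein docks PP1, differed by 1.37 (limma adjusted p = 0.0577), and the kinase gene plk1.L by 1.87 (limma adjusted p = 0.0726). Its homeolog plk1.S differed by 1.27 (limma adjusted p = 0.193). The cyclin B rows ccnb1.2.S, ccnb2.L and ccnb2.S differed by 1.86, 1.62 and 1.53 (limma adjusted p = 0.0616, 0.0840 and 0.0695). The Emi2 rows fbxo43-like.L and fbxo43-like.S differed by 1.35 and 1.31 (limma adjusted p = 0.115 and 0.121). Other rows had negative differences, among them cdk1.L (-1.19), cdk1.S (-0.70), bub1.L (-0.59), set.S (-0.53) and kiaa1524.L (-0.28). Of these, bub1.L lay near the median of all genes, -0.57, and set.S and kiaa1524.L lay above it. In anp32e, .S differed by -0.48 and .L by 0.43. None of these passed the test. With median-centred columns sgol1.L and casc5.S were called (limma adjusted p = 0.0414 and 0.0445). The median share difference of the list, cyclins and kinases included, was 0.31, beside -0.57 for all genes. The list was not tested as a set.

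By level, 0 of the 33 rows of this list was called at MII and 9 had an unadjusted p under 0.05, beside 30.4% of all names. Levels of arpp19.L and arpp19.S, the Greatwall substrates, differed by 0.50 and 0.51, with limma adjusted p = 0.106 and 0.189. Phosphatases outside the named families, such as the cdc25, ctdsp, dusp and ptpn genes, had 19 share rows and 46 level rows. None was called at MII in either, and 9 share rows and 15 level rows had an unadjusted p under 0.05, beside 32.7% of all genes by share and 30.4% of all names by level. Their median share difference was -0.72.

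PAS-seq placed the 3′ ends of these mRNAs in stage VI oocytes only, in 1 column for both lanes, so no stage comparison and no replicate error can be given. The table holds 656192 reads, of which 5843 fell on the 89 phosphatase genes. More than 1 site was listed for 78 of the 89, which is 87.6% (Wilson 95% interval 79.2% to 93.0%), beside 64.5% of all genes. The phosphatase genes also had more reads, with a median of 49 against 26 in all genes, and a median of 4 sites against 2. Across the 89 genes, reads and listed sites rose together (Spearman's rho 0.808, a description across genes that share libraries), and 0.762 across all genes. With only sites of at least 10 reads, 63.4% of 71 phosphatase genes and 40.2% of 9116 genes had more than 1 site. Intervals cover counting error only, since the reads carry no molecular identifiers. The genome build is not given in the sources used here, so bases are those of the deposited table and their place in exons or untranslated regions was not analysed here.

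The myosin phosphatase gene ppp1r12a had the most reads and the most sites. For ppp1r12a.S 220 reads were spread over 18 sites within 36729 nt of chromosome 3S. A pair of sites 15680 nt apart tied as the most used, with 14.5% of reads each (Wilson 95% interval 10.5% to 19.8%). For ppp1r12a.L 208 reads lay at 16 sites on chromosome 3L, with 24.0% at the most used site. The neurabin gene ppp1r9a.S had 16 sites and 169 reads, and ppm1b.L 14 sites and 180 reads. At the other end, 133 of 137 reads of the PP2A scaffold gene ppp2r1b.S, 97.1% (Wilson 95% interval 92.7% to 98.9%), ended at base 49630393 of chromosome 7S. The family thus spans genes with ends spread over many sites and genes with nearly all or all reads at 1 end. Only 1 site was listed for 11 of the 89 genes, of which ppp2r4.L had the most reads, 29.

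Homeologs could be alike in this respect. The PP4 subunit gene ppp4r3b.L had 183 reads at 8 sites with 54.1% at the most used, and ppp4r3b.S 182 reads at 9 sites with 42.3%. In both, a further cluster of sites lay a few kilobases downstream of the most used one: 3620 to 4650 nt in .L and 4146 to 5136 nt in .S. The most used site was at base 33938780 of chromosome 5L for .L and at base 27931765 of chromosome 5S for .S, on the plus strand.

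For ppp2r2b the depth was low. In ppp2r2b.L 41 reads ended at 3 sites on the minus strand of chromosome 3L, with 22 at base 33302322, 7 at a site 218 nt downstream and 12 at a site 558 nt downstream. The most used site held 53.7% (Wilson 95% interval 38.7% to 67.9%). In ppp2r2b.S 15 reads were split evenly over 3 sites on the plus strand of chromosome 3S, at bases 104845855, 105049593 and 105050137. The last pair lies 544 nt apart, and the first lies 203738 nt upstream of the middle one, which gives the longest span of any phosphatase gene, where the median span was 6056.5 nt. For ppp1r3b.S, 32 of 36 reads (88.9%) ended at base 83203734 of chromosome 1S. Of 82 genes with a suffix and a chromosome of one subgenome, 2 were listed on the other: ppp2ca.L on 3S and ppp6c.L on 8S, so these names and places go against each other.

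**Figure D4:**
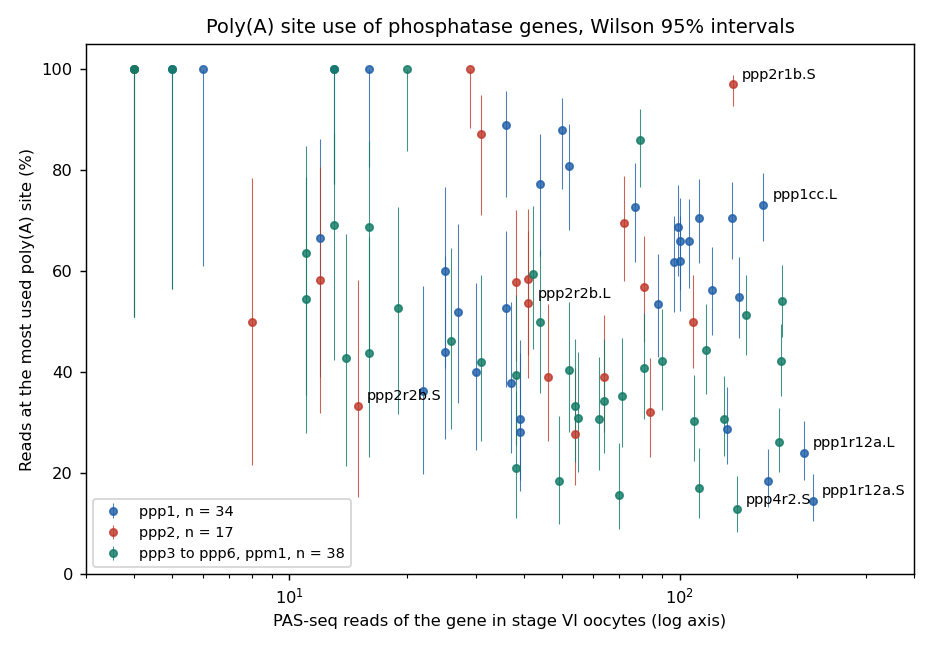
Share of a gene's PAS-seq reads at its most used poly(A) site (percent, vertical axis) against its reads in stage VI oocytes (log axis) for 89 phosphatase genes. Points are genes and bars Wilson 95% intervals. Among genes with over 100 reads, ppp2r1b.S is at 97.1% and ppp1r12a.S at 14.5%.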

How the data were processed

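Gradient fractions of oocytes from 5 stages and PAS-seq of stage VI oocytes were analysed as deposited. Per the file headers, the share is a fraction given by the authors for each stage in column sets x and y. The deposited RNA levels have no stated unit and were read as a score, and the authors' deposited ratio of each stage to stage VI equalled the quotient of their levels. Per the file headers, poly(A) sites carry a whole-number count of reads. Bowtie, Bowtie2, TopHat2 and Cufflinks are named in the submitters' processing notes, without versions or roles; the build is not given in the sources used here. All 10 share and 10 level columns were mapped to a stage, and x and y were used as its replicates.

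Shares were converted to log2(share / (1 - share)) and fitted with stage as the only term. Levels were converted to log2 and fitted with stage and column set, over names listed a single time. No value was 0, so no pseudocount or filter was used. The smallest level was 1.00, and whether lower levels were left out before deposit is not stated. Both fits used limma 3.58.1 (R 4.3.3) with a mean-dependent prior variance. Within each of 7 contrasts, Benjamini-Hochberg adjustment ran over all genes. Residual degrees of freedom were 5 for shares and 4 for levels. The fits were run on simulated data with independent normal noise. The only check was of the median recovered change, so it does not bear on false calls or missed changes. Alternatives were other scalings, a column-set block, the columns of the compared stages only, the untransformed share, a filter on low levels, leaving out each column, a 1.5-fold threshold, merging sites less than 50 nt apart and dropping sites under 10 reads. The rule for the members uses names alone, but it and the gene lists were set with earlier results of these data known. Named genes were the catalytic, scaffold, B55, B56, calcineurin and main PPM1 subunits, every called gene, and the 3 largest rises and falls of share per stage with both columns beyond stage VI. To these were added the 4 largest and 4 smallest level ratios at MII, the genes with most reads or sites, and the 3 homeolog pairs with the largest gap. Further genes named beside them were chosen after their values were seen. Of 103 names, 92 matched a symbol or synonym in the RefSeq gene table. Sequences were not analysed here.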

Additional observations from a re-analysis of the deposited data

How the results depend on the processing

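No paired analysis was possible by the replicate numbers of the libraries, because the x and y columns carry none. Pairing x with x and y with y instead, with the column set as a block, called 8 phosphatase genes by share at MII instead of 3. The called part of the phosphatase genes was then no larger than that of all genes. Leaving out 1 column called 0 to 2 phosphatase genes. Without the stage VI column x or y no gene of the table was called. By level at MII, 6 phosphatase genes were called without low levels and 5 with median-centred columns, instead of 2. Both of these settings also called more of all names than the main fit. With median-centred columns the called part of the phosphatase genes was near that of all names. Without low levels the called parts were not compared. Without the column-set term and with median-centred columns, 0 phosphatase genes were called. Neither level call of the main fit held when any 1 column of MII or stage VI was left out. At 1.5-fold in both sets, 1 of 88 phosphatase names was lower at PG90, and 5 were higher and 2 lower at MI. At interkinesis 3 were higher and 3 lower, and at MII 8 were higher and 5 lower. Among all 11765 names, 96 were higher and 128 lower at PG90, and 288 higher and 389 lower at MI. At interkinesis 505 of all names were higher and 831 lower, and at MII 694 were higher and 999 lower. The median share difference of the phosphatase genes minus that of all genes was 0.0128 at PG90 after quantile normalization, where the main value was 0.0450. With 1 column left out it ran from -0.0545 to 0.00632 at PG90, from -0.0802 to 0.269 at interkinesis and from -0.108 to 0.201 at MII. With at least 10 reads per site, 63.4% of genes had more than 1 site, the median was 2 sites and the most used site held a median of 73.5% of reads, instead of 52.8%.

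The share difference at MII changed sign with median-centred columns and after quantile normalization in ppp1r10-like.L (0.22 and 0.49), ppp1cb.S (0.17 and 0.098), ppm1d.S (0.35 and 0.46), ppm1g.L (0.43 and 0.31) and ppm1g.S (0.15 and 0.11). After quantile normalization alone it did so in ppp4r2.S (-0.011), ppm1d.L (0.0030) and ppp6r3.S (0.045). Leaving out 1 column, the share differences ran from -2.86 to 0.29 in ppp1r2.L, from -0.028 to 0.62 in ppp1r10-like.S, from -1.49 to 0.078 in ppp4r2.L, from -0.65 to 0.72 in ppp4r2.S, from -0.60 to 0.22 in ppm1d.S and from -0.39 to 0.17 in ppm1g.L. Level differences ran from -0.96 to 0.032 in ppp2r2b.L, from -0.15 to 0.51 in ppp2r2b.S, from -0.33 to 0.016 in ppp2r2a.S, from -0.47 to 0.82 in ppp2cb.L, from -0.65 to 0.73 in ppp1ca.L, from -0.19 to 0.45 in ppp1cc.S, from -0.081 to 0.59 in ppp2r1b.S, from -0.022 to 0.24 in ppp3r1.L, from -0.081 to 0.38 in ppp4c.L, from -0.74 to 0.45 in ppp5c.S, from -0.98 to 0.91 in ppp6r2.L, from -0.21 to 0.22 in ppm1a.L, from -0.054 to 0.25 in ppm1b.L, from -0.0053 to 0.15 in ppm1b.S and from -0.28 to 0.079 in mastl.L. With median-centred columns, with or without the column-set term, the level difference of ppp6r2.L was 0.032. The share change of ppp2r2b.L ran from 2.93 to 3.12, that of ppp2r2b.S from 1.78 to 2.49 and that of ppp1r3b.S from -2.59 to -1.51. The causes were not tested. The depth behind shares and levels is unknown, and the residual degrees of freedom are few.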
